A study of Mus musculus with 6 samples.

Results

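The genes described here are Lepr, Insr, Socs3 and Stat3, read out as the probes of a mouse DNA methylation array that lie in a window around each gene. A probe was a member when it is not a control and its mm9 position falls in chr4:101380000-101490000 for Lepr, chr8:3150000-3285000 for Insr, chr11:117820000-117836000 for Socs3 or chr11:100745000-100806000 for Stat3. In all, 34 of the 174638 probes met this rule, 7 for Lepr and 9 for each of the others. In each window these probes formed 1 continuous stretch so the 4 windows held 4 of the 22574 tiled regions of the array. No probe lay elsewhere in the long windows, so nothing was measured over the rest of each gene.

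The DNA came from hypothalamus of 16 week old mouse offspring, with 3 arrays per group. In the inulin group the dams had received inulin, a plant fibre fermented by gut bacteria. In the obesity group the dams were obese, and a maternal high fat diet stands in the same labels. No group of offspring from lean dams is among these arrays, and the labels give neither strain nor sex nor litter, nor whether the inulin dams were also on a high fat diet. Methylated fragments were pulled down with an antibody (MeDIP) and labelled with Cy5, the input DNA of the same sample was labelled with Cy3, and both were hybridised to 1 array. Nothing says that samples of a group came from separate litters, so each p-value here rests on sample-to-sample spread that may be technical. DNA gives no expression, so the tissue cannot be checked against its marker genes.

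In the hypothalamus, leptin from fat tissue binds the leptin receptor, the product of Lepr, a cytokine receptor whose bound kinase phosphorylates the transcription factor encoded by Stat3. STAT3 then moves to the nucleus and turns on target genes, among them Socs3, whose product binds the receptor and its kinase and ends the signal. Insr encodes the insulin receptor, a tyrosine kinase whose signal in the same neurons also acts on feeding and glucose balance and is dampened by SOCS3 as well. MeDIP reads how much methylated DNA a fragment carries, so its signal depends on how many CpG sites lie there as well as on how many of them are methylated.

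The promoter sequences are shown because the CpG sites in them are the sites at which methylation can be read. RefSeq promoters of build GRCm38.p6 were at hand for 3 of the 4 genes, with 2 starts for Lepr and none for Insr. Each is the 250 bases before a start, 5′ to 3′ on the strand of the gene, with every CG in capitals. They lie at chr4:101717157-101717406 and chr4:101717656-101717905 on the plus strand for Lepr, and on the minus strand at chr11:117969367-117969616 for Socs3 and chr11:100939541-100939790 for Stat3. The probes are placed in mm9, so which of these bases a probe covers, and whether it lies before or after the start, is not given here.
Lepr, upstream start: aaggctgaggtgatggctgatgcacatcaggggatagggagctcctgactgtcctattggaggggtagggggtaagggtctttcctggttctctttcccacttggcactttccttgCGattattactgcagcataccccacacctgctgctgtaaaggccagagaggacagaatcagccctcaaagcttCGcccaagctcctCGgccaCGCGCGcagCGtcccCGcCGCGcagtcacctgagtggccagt
Lepr, downstream start: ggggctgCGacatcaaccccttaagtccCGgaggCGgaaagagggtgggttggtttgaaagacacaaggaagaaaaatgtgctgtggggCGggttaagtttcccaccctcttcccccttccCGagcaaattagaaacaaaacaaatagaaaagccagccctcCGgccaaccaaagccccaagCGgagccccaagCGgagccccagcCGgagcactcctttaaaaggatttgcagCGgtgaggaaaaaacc
Socs3: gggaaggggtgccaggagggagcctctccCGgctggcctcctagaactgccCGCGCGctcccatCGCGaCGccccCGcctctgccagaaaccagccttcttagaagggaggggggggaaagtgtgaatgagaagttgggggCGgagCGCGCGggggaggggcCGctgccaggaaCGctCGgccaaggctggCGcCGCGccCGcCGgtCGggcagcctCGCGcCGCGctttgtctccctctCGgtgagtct
Stat3: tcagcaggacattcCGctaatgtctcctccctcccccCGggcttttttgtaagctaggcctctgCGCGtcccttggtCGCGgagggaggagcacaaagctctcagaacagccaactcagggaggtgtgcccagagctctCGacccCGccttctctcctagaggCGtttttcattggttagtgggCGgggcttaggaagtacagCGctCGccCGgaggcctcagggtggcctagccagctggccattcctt

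The Socs3 promoter was the richest in CpG of these, with 26 CG in 250 bases and a GC content of 71.6%. Stat3 had 13, and each Lepr start had 10. Over 32851 RefSeq promoters of the same length the median was 6, with quartiles of 2 and 16. In the Lepr promoter of the upstream start, the capitals crowd toward the start, while at Socs3 they run along most of the stretch. The letters TTCNNNGAA, the pattern bound by STAT proteins, reads the same on both strands and occurred once, as TTCTTAGAA in Socs3 from 154 to 146 bases before the start. It was found in 7.02% of all promoters. The GC-box letters GGGCGG, searched on both strands, occurred once each in Socs3, in Stat3 and at the downstream Lepr start, and in 32.7% of all promoters. A match of letters is not a measured binding site.

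The main value was the log2 ratio of MeDIP over input signal, with each array centred on its median, so that 0 is the middle of all probes of that array. For the channels alone, log2 signals were centred in the same way. Per array, 94.4% to 96.4% of all probes were well above background in the input channel. In the MeDIP channel the share was 77.3% to 85.7%, highest on obesity array 2. Over all probes the interquartile range of the ratio was 1.37 to 1.39 on the inulin arrays and 1.62 to 1.89 on the obesity arrays, the widest again on obesity array 2. Per the file headers the 3 inulin arrays shared scan 1, obesity array 2 was scan 2, and obesity arrays 1 and 3 shared scan 3. No scan held both groups, so scan and group cannot be told apart in any result below.

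The first question was whether any of the 4 tiled stretches as a whole differed between the groups, and none passed. By limma over all 22574 regions with Benjamini-Hochberg adjustment, 0 of 4 passed an adjusted p of 0.05 in the ratio, against 7.42% of all regions, and 0 of 4 did so in the MeDIP channel (0.253% of all regions) or in the input channel (2.14%). At an unadjusted p under 0.05 there was 1 in the ratio, Insr, against 28.6% of all regions. An exact permutation test of 3 against 3 arrays cannot go below p = 0.1, and 15 such tests were made, 4 genes by 3 measures and 3 more at Stat3 over fewer probes.

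Socs3 had the highest ratio of the 4 stretches, above 88.0% of all regions of the array. The Socs3 stretch lay on chromosome 11 from 117830181 to 117831950. Its mean log2 ratio was 0.67, 0.51 and 0.56 on inulin arrays 1, 2 and 3 and 0.51, 0.38 and 0.60 on obesity arrays 1, 2 and 3. The groups overlapped, with obesity array 3 above 2 of the 3 inulin arrays. The means were 0.58 ± 0.079 and 0.50 ± 0.11 (SD, n = 3 each), a difference of 0.085 (limma SE 0.084, adjusted p = 0.536; exact permutation p = 0.4, two-sided). It was 0.043 over the 8 probes above background and 0.025 without obesity array 2, and its sign turned with the median of the probes (-0.051) and with normexp background correction (-0.0032). The MeDIP signal differed by -0.010 and the input by -0.078.

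Lepr, on chromosome 4 from 101388721 to 101390160, lay next, above 62.6% of all regions. Its ratio was 0.15, 0.038 and 0.15 on the inulin arrays and 0.10, 0.32 and -0.0057 on the obesity arrays. The obesity arrays spread on both sides of the inulin arrays, and array 2 was the highest of all. The difference was -0.026 (limma SE 0.093, adjusted p = 0.883; exact permutation p = 0.9), and its sign turned without obesity array 2 (0.063), without inulin array 2 (0.011) and on an equal scale (0.0063). The MeDIP signal of obesity array 2 was 0.29, against -0.16 to -0.024 on the other five arrays.

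Stat3, on chromosome 11 from 100800358 to 100802066, sat in the middle of the array, above 51.8% of all regions. Its ratio was 0.064, -0.050 and -0.016 on the inulin arrays and -0.014, -0.10 and -0.051 on the obesity arrays, with overlap. The difference was 0.055 (limma SE 0.071, adjusted p = 0.644; exact permutation p = 0.4). On inulin array 1 the spot of probe 8, from 100801822 to 100801869, was marked as an outlier and left out, so that array's mean is over 8 probes. Over the 8 probes with a value on every array the ratios were 0.064, 0.0061 and 0.055 against 0.073, 0.062 and 0.050, and the difference turned to -0.020 (exact permutation p = 0.5). Over all 9 probes the input was -0.10, 0.29 and 0.26 on the inulin arrays against 0.28, 0.37 and 0.28, with overlap (exact permutation p = 0.3). Over the 8 probes both channels were lower on every inulin array, and in the input this rested on probes 5 and 7, which were lower by 0.70 and 0.71 while the other six differed by -0.17 to 0.44. The MeDIP signal was 0.015, 0.063 and 0.051 against 0.17, 0.31 and 0.16, and the input was -0.10, -0.0068 and -0.053 against 0.041, 0.17 and 0.023 (exact permutation p = 0.1 for both, the smallest these arrays allow). In the MeDIP channel the widest difference among these probes was at probe 5 (-0.88), where no inulin array was well above background. Probe 7 was above background on no array in that channel, and the rest differed by -0.26 to 0.34. Every inulin array was the lower at 9.61% of all regions in the MeDIP channel and at 12.2% in the input. These shares are over all probes of a region with a value, and by that measure the groups overlapped in the Stat3 input.

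Insr, on chromosome 8 from 3279121 to 3280830, had the lowest ratio of the 4, above 37.3% of all regions, and was the only stretch whose groups did not overlap. The ratio was -0.22, -0.12 and -0.16 on the inulin arrays and -0.41, -0.31 and -0.31 on the obesity arrays, so every inulin array was the higher. The means were -0.17 ± 0.048 and -0.34 ± 0.058 (SD, n = 3 each), a difference of 0.17 (limma SE 0.071, unadjusted p = 0.0355, adjusted p = 0.145; exact permutation p = 0.1). Every inulin array was the higher at 20.8% of all regions. The MeDIP signal of Insr differed by 0.0012, while the input was lower in the inulin group by 0.16 (exact permutation p = 0.3), with obesity array 2 highest at 1.31 and inulin array 1 lowest at 0.91. Over the 7 probes above background in both channels the difference in ratio was 0.047, and with the median of the probes in place of their mean it was -0.25.

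**Figure D1:**
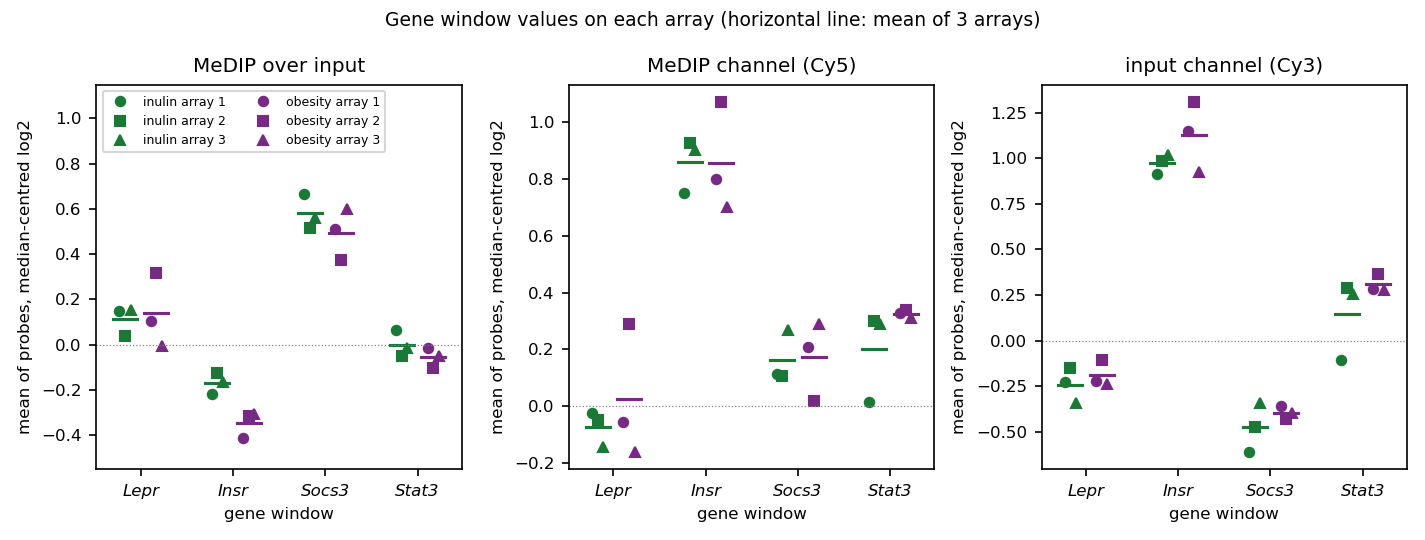
Mean over the probes of each gene window on each array, as median-centred log2 values, for the MeDIP over input ratio and for each channel. Green marks are inulin arrays, purple marks obesity arrays, and lines are means of 3 arrays. The ratios of Insr separate, at -0.22 to -0.12 against -0.41 to -0.31, and those of the other genes overlap. The low Stat3 channel values of inulin array 1 are means over 8 probes.

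The order of the 4 stretches was stable across arrays: Socs3 was above Lepr and Stat3 was above Insr on 6 of 6 arrays. Lepr was above Stat3 on 6 of 6 arrays, but on 5 of 6 over the probes with a value on every array, and these neighbours overlapped in range. Stretches differ in CpG number and in how their probes hybridise, so this is no order of methylation. In brightness the order was another one, with Insr the brightest in both channels (MeDIP 0.86 and input 1.05 over 6 arrays) and Socs3 dimmest in the input (-0.44).

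Within each stretch the probes differed far more than the groups did. Among probes with a MeDIP signal above background on all 6 arrays, the mean ratio ran from -1.67 to 2.12 at Insr, from -1.26 to 1.33 at Stat3, from -0.41 to 1.35 at Lepr and from -0.70 to 1.75 at Socs3. Lower still, but without a measured MeDIP level, were Insr probe 5 (above background on 1 array) and Stat3 probe 7 (on 0 arrays). Below these ranges too were Lepr probes 3 (-0.91) and 4 (-0.68), above background on 2 of 3 arrays in each group. The same held for Insr probe 8 (-1.73), above background on 3 of 3 inulin arrays and 2 of 3 obesity arrays. At Insr the 2 highest probes lay side by side, probe 2 from 3279325 to 3279369 and probe 3 from 3279531 to 3279575 (2.12), and the dim probe 5, from 3279966 to 3280010, lay 2 probes further on. At Lepr probes 1 to 4 lay at or below 0 and probes 5 to 7 above, with the step between probe 4 from 101389404 to 101389462 (-0.68) and probe 5 from 101389702 to 101389753 (1.35). At Stat3 probes 1 to 6 lay above 0 and probes 7 to 9 below. At Lepr probe 1 and Stat3 probe 5, both near 0 on average, the group means lay on either side of 0.

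**Figure D2:**
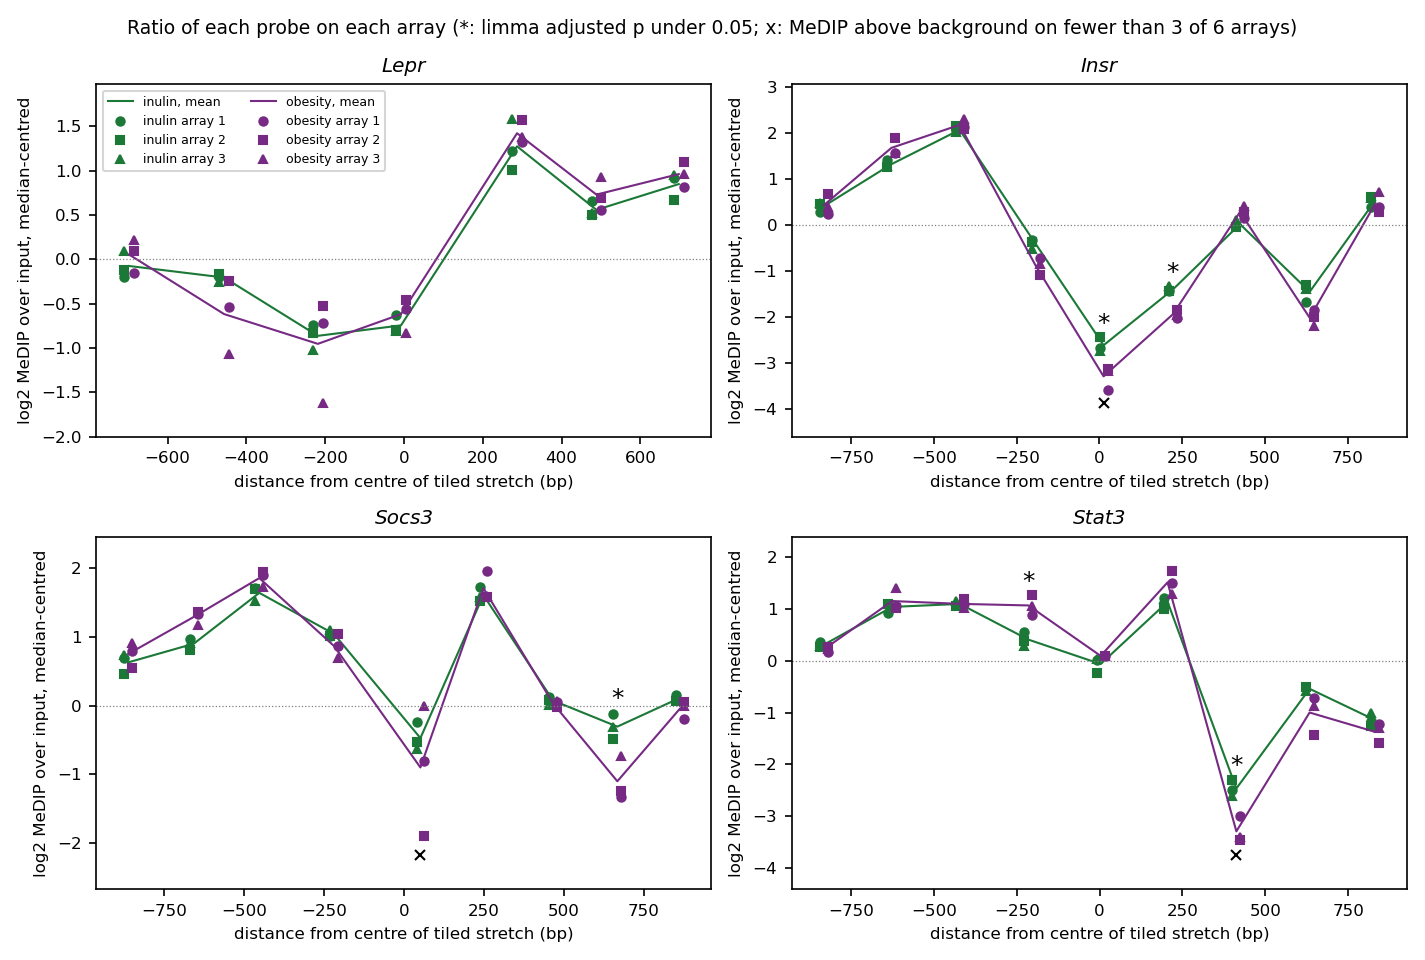
Median-centred log2 MeDIP over input ratio of every probe on every array, by distance in bp from the centre of the tiled stretch of each gene. Lines join group means, stars mark limma adjusted p under 0.05, and crosses mark probes whose MeDIP signal was above background on fewer than 3 of 6 arrays. The profiles of both groups follow each other, and the obesity profile reaches lower at the low probes of Insr, Socs3 and Stat3. At probes with a cross the gap between the groups is not a measured difference.

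At single probes, 5 of 34 passed in the ratio (14.7%), by limma over 170019 probes with Benjamini-Hochberg adjustment, against 8.21% of all probes. The 5 were 2 at Insr, 1 at Socs3 and 2 at Stat3, and none was at Lepr. Of these, 4 were higher in the inulin group, the direction of 5.12% of all probes, and 1 lower, the direction of 3.08%. At 2 of the 4 higher calls, 1 at Insr and 1 at Stat3, the MeDIP signal was above background on no inulin array. The split moved with the processing: it was 4 higher and 6 lower with normexp background correction (13640 and 13450 over all probes), and 3 higher and 2 lower among probes above background in both channels (7820 and 8276 over all probes). At an unadjusted p under 0.05 there were 10 (29.4%), close to the 30.1% of all probes. Among the 33 probes with a value on every array the groups did not overlap at 15, of which 8 were higher and 7 lower in the inulin group (45.5%, against 38% of all probes, 19% in each direction). None of the 5 calls stayed when scan was a random block, where only 0.159% of all probes were called. None stayed when any inulin array was left out, where 0.421% to 1.33% of all probes were called. Nor did any stay on an equal scale (3.51% of all probes called), with quantile-normalized arrays (2.70%) or in the authors' deposited table (2.88%).

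The Socs3 call was probe 8, from 117831707 to 117831759, which was 1 of 2 probes called here with a higher ratio and a MeDIP signal above background on all 6 arrays. Its ratio was -0.13, -0.48 and -0.31 on the inulin arrays and -1.32, -1.24 and -0.74 on the obesity arrays, without overlap. The difference was 0.79 (limma SE 0.18, adjusted p = 0.0448), and the limma adjusted p was 0.0121 to 0.206 over all alternatives. It was 0.65 on an equal scale (adjusted p = 0.085) and 0.34 in the authors' deposited table (adjusted p = 0.0813). Both channels moved apart, with the MeDIP signal higher in the inulin group by 0.50 (adjusted p = 0.11) and the input lower by 0.28 (adjusted p = 0.264), neither past the threshold alone. Its neighbours, probes 7 and 9, differed by 0.042 and 0.16 (limma adjusted p = 0.816 and 0.386).

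Probe 6 of Insr, from 3280172 to 3280223, was the other such call. Its ratio was -1.43, -1.44 and -1.32 on the inulin arrays and -2.02, -1.84 and -1.95 on the obesity arrays. The 3 arrays of each group lay close together and the groups were well apart, with a difference of 0.54 (limma SE 0.11, adjusted p = 0.0357; 0.0184 to 0.834 over all alternatives). This size depended on the scaling, since it was 0.18 on an equal scale and 0.039 in the authors' deposited table. The MeDIP signal of this probe was 1.30, 1.42 and 1.28 against 0.84, 1.62 and 0.47, and its input 2.68, 2.79 and 2.55 against 2.80, 3.39 and 2.33. The obesity arrays thus moved together in both channels, which the ratio took out.

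At the second Insr call, probe 5, the MeDIP signal was well above background on 0 of 3 inulin arrays and 1 of 3 obesity arrays, so no difference in ratio is given. The input there was -0.025, 0.011 and -0.091 on the inulin arrays and 0.71, 0.87 and 0.042 on the obesity arrays (difference -0.58, limma adjusted p = 0.103). Other probes of Insr near the threshold were probe 4, from 3279761 to 3279805 (ratio difference 0.47, limma adjusted p = 0.0732), and probe 8, from 3280581 to 3280640 (0.56, adjusted p = 0.0611). The MeDIP signal of probe 8 was above background on only 2 of 3 obesity arrays. Probes 2 and 7 were lower on every inulin array, by 0.35 and 0.26 (adjusted p = 0.128 and 0.189). The Insr stretch thus held differences of both signs, and its mean joins them.

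Insr was also the gene with most single-probe calls in the MeDIP channel, in opposite directions. The MeDIP signal of probe 2 was 1.51, 1.55 and 1.71 on the inulin arrays and 2.05, 2.12 and 2.18 on the obesity arrays, a difference of -0.53 (limma adjusted p = 0.041). At probe 4 it was 0.74, 0.85 and 0.86 against 0.41, 0.25 and 0.30, a difference of 0.50 (adjusted p = 0.0433). The input differed little at both, by -0.15 and 0.046 (adjusted p = 0.53 and 0.85). These were 2 of the 3 MeDIP calls among the 34 probes (8.82%), 1 higher and 2 lower, against 10.6% of all probes, 6.94% higher and 3.67% lower.

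The 1 lower ratio was at Stat3, probe 4, from 100800975 to 100801019. Its ratio was 0.56, 0.38 and 0.28 on the inulin arrays and 0.89, 1.26 and 1.06 on the obesity arrays, without overlap, a difference of -0.66 (limma SE 0.14, adjusted p = 0.0389; 0.0073 to 0.175 over all alternatives). It was -0.49 on an equal scale and -0.24 in the authors' deposited table. Of the channels, the input was higher in the inulin group by 0.44 (adjusted p = 0.0821) and the MeDIP signal lower by 0.24 (adjusted p = 0.239), so the input had the larger part. Of its neighbours, probe 3 differed in ratio by -0.0010 (adjusted p = 0.996), and at probe 5 the MeDIP signal was not above background in the inulin group.

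Probe 5 of Stat3, from 100801193 to 100801237, was lower in both channels on the inulin arrays. The MeDIP signal was -2.17, -2.06 and -1.93 on the inulin arrays, well above background on none of them, and -1.36, -0.80 and -1.37 on the obesity arrays, above background on all 3. That is at least 1.59-fold lower in the inulin group, where the bound sets the dim group at the lowest signal that counted as above background on each array. The bound itself was not tested. Limma on the signals as read, those below background included, gave an adjusted p of 0.0291. The input was -2.24, -1.89 and -2.02 against -1.52, -0.96 and -1.55, a difference of -0.70 (adjusted p = 0.0423).

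Stat3 also held the other input call. Probe 7, from 100801595 to 100801654, had an input of -1.49, -1.25 and -1.33 on the inulin arrays and -0.46, -0.75 and -0.73 on the obesity arrays, a difference of -0.71 (limma adjusted p = 0.0158). Its MeDIP signal was not well above background on any of the 6 arrays, so although its ratio passed the threshold no difference in ratio is given. In the input channel 2 of 34 probes passed (5.88%), both at Stat3 and both lower, against 13.7% of all probes, 5.75% of them in that direction. At probe 8, measured on 2 inulin arrays only, both channels were higher in the inulin group, the MeDIP signal by 0.98 and the input by 0.54 (limma adjusted p = 0.0928 and 0.0768).

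**Figure D3:**
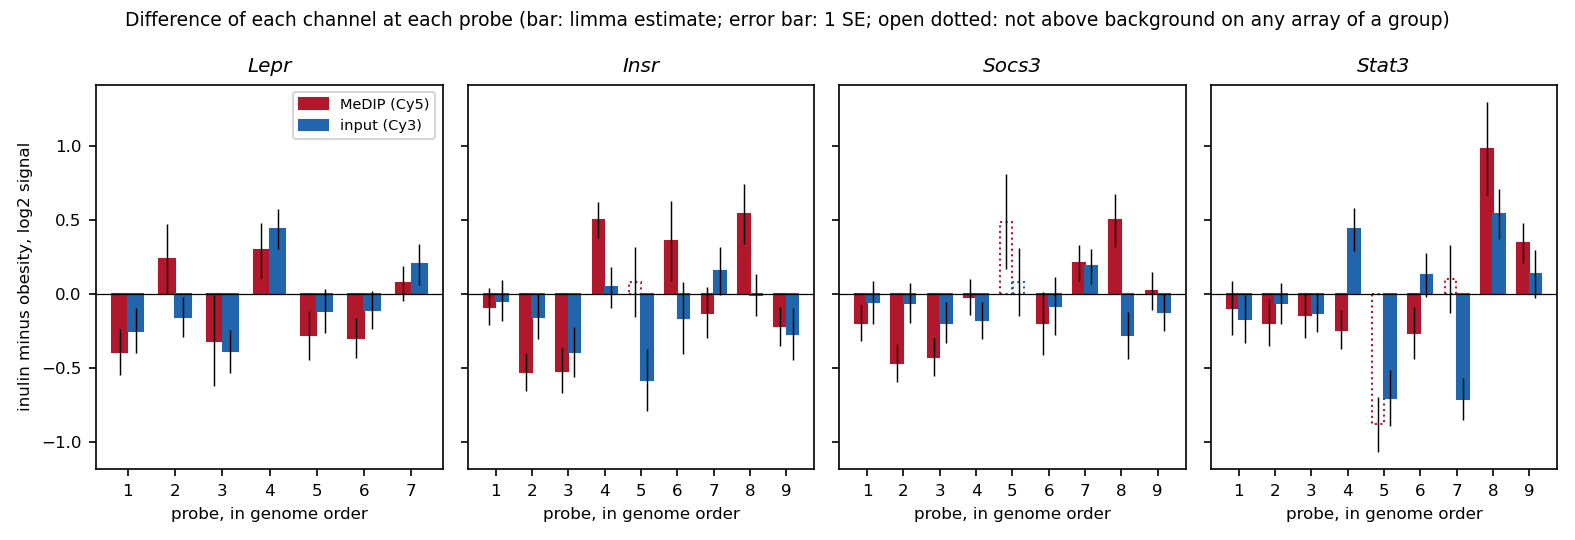
Difference between the groups, inulin minus obesity in log2 signal, at each probe in genome order. Red bars are the MeDIP channel, blue bars the input channel, and error bars are 1 SE of the limma estimate. Open dotted bars mark a channel not well above background on any array of a group, where the length is not a measured difference. The longest input bars are those of Stat3 probes 5 and 7 (-0.70 and -0.71), and at Insr probes 2 and 4 the MeDIP bars are -0.53 and 0.50.

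At Lepr no probe passed in any measure. Nearest to the threshold was the input of probe 4, from 101389404 to 101389462, with a difference of 0.44 (limma adjusted p = 0.0688). The input of probe 3 went the other way, with a difference of -0.39 (adjusted p = 0.115). The widest difference in ratio was at probe 2, from 101388956 to 101389012, with -0.20, -0.16 and -0.26 on the inulin arrays and -0.54, -0.25 and -1.07 on the obesity arrays (difference 0.41, limma adjusted p = 0.217). Here obesity array 3 stood apart, as it did at probe 3, from 101389199 to 101389245. At probe 3 it read -1.62, against -1.02 to -0.53 on the rest of the arrays. Background was cleared there by the MeDIP channel of 2 of 3 arrays in each group. Obesity array 3 was the dimmest of its group in that channel (-2.06, against -1.33 and -0.91), so its -1.62 may not be a measured ratio. The most negative difference in ratio was -0.17, at probe 6 from 101389907 to 101389951 (adjusted p = 0.417). In the MeDIP channel 3 of the 7 probes of Lepr were lower on every inulin array, by 0.39 at probe 1, 0.28 at probe 5 and 0.30 at probe 6 (limma adjusted p = 0.138, 0.269 and 0.179). In this channel every inulin array was the lower at 19.3% of all probes.

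At Socs3 the called probe lay at the low end of the range of the gene. The highest mean ratio was 1.75, at probe 3 from 117830591 to 117830635, and the lowest -0.70, at the called probe 8. The most negative difference was at probe 2, from 117830386 to 117830430, with 0.98, 0.81 and 0.91 against 1.34, 1.36 and 1.17 (difference -0.39, limma adjusted p = 0.0774), where the MeDIP signal was lower by 0.47 (adjusted p = 0.0577) and the input by 0.061. Probe 5, from 117831092 to 117831142, was not well above background in either channel on any array.

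Across the 34 probes the sign of the difference went with the level of the ratio. Of 13 probes with a mean ratio below 0, 11 were higher in the inulin group, and of 21 above 0, 5 were. These include 4 probes whose MeDIP signal was above background on no array of at least 1 group, 3 of them below 0. All probes of the array had the same tilt, with 71.3% higher below 0 and 28.4% above 0, beside the narrower spread of ratios on the inulin arrays. With the arrays on an equal scale 9 of 13 and 14 of 21 members were higher, against 49.5% and 55.2% of all probes. After quantile normalization the members gave the same counts, and in the authors' deposited table they gave 8 of 13 and 12 of 21. The part of the narrower spread in the probe differences above was not tested beyond these scalings.

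**Figure D4:**
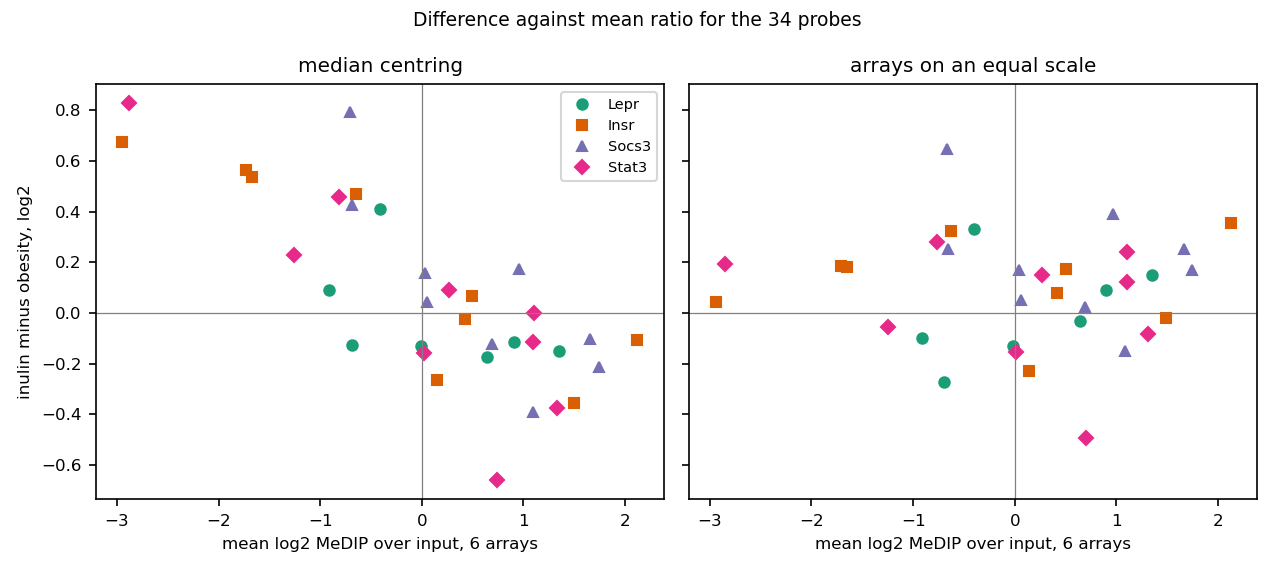
Difference between the groups against the mean ratio of each of the 34 probes, in log2 units, with arrays median-centred (left) and on an equal scale (right). On the left 11 of 13 probes below 0 lie above the zero line and 16 of 21 probes above 0 lie below it. On the right 9 of 13 and 14 of 21 lie above it.

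The regions whose pattern over the 6 arrays was most like that of a gene were named by position only. For Lepr they were chr12:77923033-77924734 and chr10:18265433-18266955, and for Insr chrX:99352013-99353605 and chr1:44158758-44160325. For Socs3 they were chr9:120485153-120486862 and chr1:82287606-82289077, and for Stat3 chr6:85658111-85659755 and chr5:114099918-114101410. Pearson's r with the gene was 0.969 to 0.996 over 6 arrays that share scans, chosen as the highest of 22568 regions, of which 21 (Stat3) to 75 (Socs3) had an r above 0.95.

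**Figure D5:**
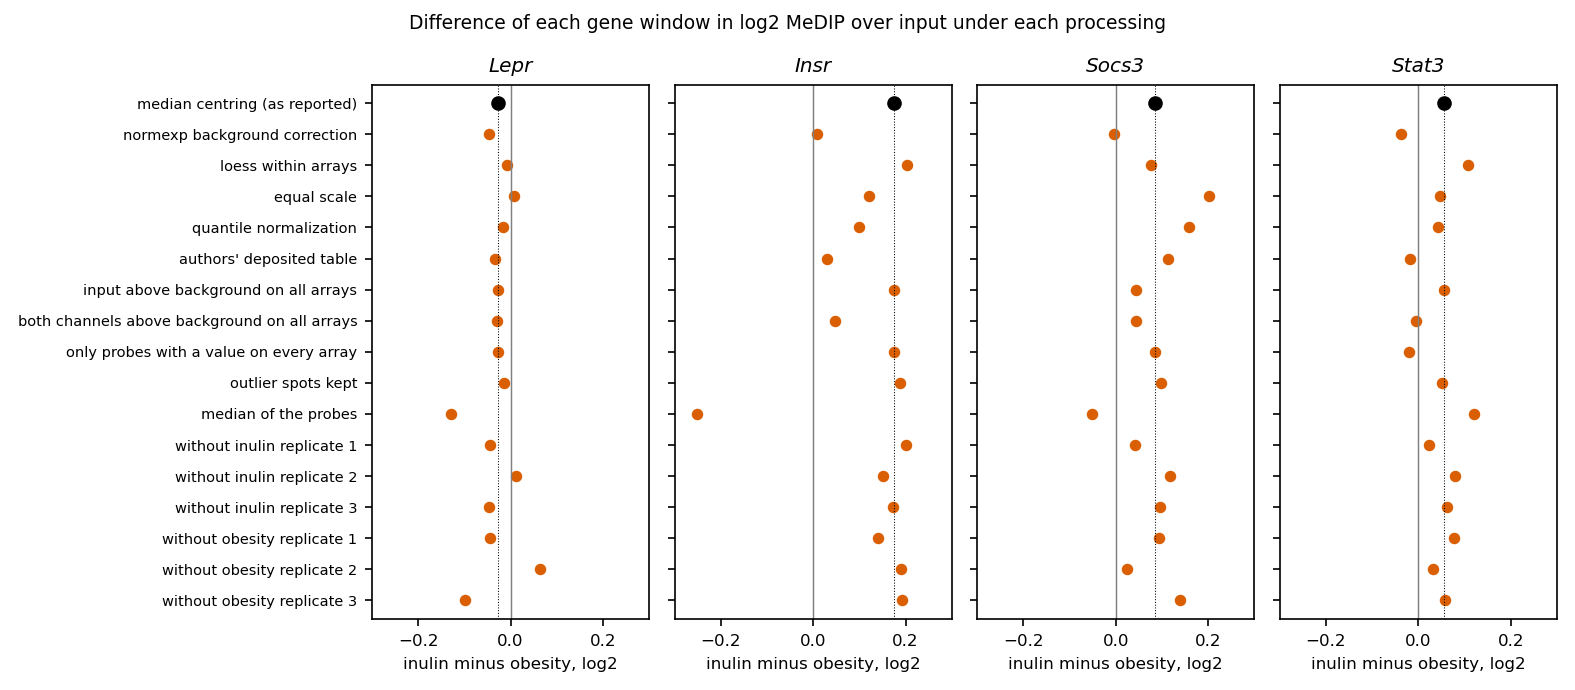
Difference of each gene window in log2 MeDIP over input, inulin minus obesity, as reported (black) and under each other processing (orange). Lepr stays within 0.13 of 0. Insr runs from -0.25 to 0.20, Socs3 from -0.051 to 0.20 and Stat3 from -0.037 to 0.12, each crossing 0.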

How the data were processed

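The data are 6 two-colour arrays, 3 per group. Cy5 carried the MeDIP DNA and Cy3 the input, as the labels' protocols state. The authors extracted the scans, per the file headers, with Feature Extraction 11.0.1.1 (positions in mm9), and the processed signals are intensity values, background-subtracted and scaled by a linear dye factor. The deposited log10 ratio (red over green, per the file headers) was within rounding of these signals at 98.5% to 99.6% of probes. The authors' deposited table holds a score per probe, whose correlation with that array's log2 ratio was 0.866 to 0.912. Its log base, scale, centring and making are not stated, and its medians ran from 0.043 to 0.061.

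Outlier spots (1901 to 4863 per array) were left out, and each array's log2 values were median-centred. Regions were runs of at least 3 probes with starts at most 500 bp apart, averaged over probes. All 22574 regions and 170019 probes with values on 2 or more arrays per group were fitted with limma 3.58.1 (R 4.3.3). Tests were two-sided and Benjamini-Hochberg adjusted at 0.05. They were run on simulated data with independent noise on each array. Neither a scan effect nor a difference in spread between the groups was put in, so that check does not cover these. Exact permutation tests used single values per array. Figures used matplotlib 3.10.9. The number of arrays limits precision.

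Members, lists and tests were chosen with earlier results of these data known. Named are the genes, their regions, called probes and, per gene, the probes of extreme ratio and difference, and the 2 regions most like each gene. Other probes are named only beside these or where a channel passed or nearly did, after their values were seen. Other pathway genes were not analysed here, because no table at hand places genes in mm9.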

Additional observations from a re-analysis of the deposited data

How the results depend on the processing

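No gene region passed the adjusted threshold (limma) in any of the 20 alternatives. The count of member probes past it was 5. It was 10 with normexp background correction (15.9% of all probes) and 3 with the replicate block (8.67%). It was 0 with quantile-normalized arrays (2.70% of all probes), on an equal scale (3.51%), with scan as a random block (0.159%, estimated correlation 0.35) and in the authors' deposited table (2.88%), so 0 of 34 is near these shares. When 1 array was left out it was 0 to 3. It was 0 without inulin array 1, 2 or 3 (0.553%, 0.421% and 1.33% of all probes). It was 1 without obesity array 1 or 3 (3.05% and 3.50% of all probes), and 3 without obesity array 2 (9.07%). Over all probes the calls numbered 13956, and 27090 with normexp, 21136 with loess, 270 with scan as a random block and 701 to 2224 without any 1 inulin array. Over all regions the 1675 calls became 0 without any 1 inulin array or with scan as a random block, 733 with the median of the probes, 2792 with loess and 2649 with outlier spots kept. Over all regions, higher and lower calls numbered 1267 and 408 as reported, 485 and 426 on an equal scale, 251 and 246 with quantile-normalized arrays, 706 and 859 over probes above background in both channels and 219 and 348 in the authors' deposited table. Same-numbered arrays were not treated as paired. Their deviations from the group means correlated at -0.14, 0.28 and 0.33. Inulin arrays 2 and 3 matched their own number best, and inulin array 1 did not. With 3 arrays per group this cannot settle whether they were paired. The replicate block called 2699 regions, against 1675 without it.

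The Insr difference of 0.17 was 0.0089 with normexp, 0.10 with quantile-normalized arrays, 0.12 on an equal scale, 0.029 in the authors' deposited table, 0.047 over probes above background in both channels and -0.25 with the median of the probes. It ran from 0.14 to 0.20 when 1 array was left out. The Socs3 difference of 0.085 was 0.20 on an equal scale and -0.051 with the median (0.025 to 0.14 when 1 array was left out). The Stat3 difference of 0.055 was -0.037 with normexp, 0.11 with loess, -0.018 in the authors' deposited table, -0.0040 over probes above background in both channels, 0.12 with the median and -0.020 over probes with a value on every array, a setting chosen after the data were seen (0.023 to 0.080 when 1 array was left out). The Lepr difference ran from -0.099 to 0.063 when 1 array was left out. The causes of these shifts were not tested. None of the 5 called probes changed direction in any alternative that measured it, and all alternatives reuse the same arrays. For Insr probe 5 and Stat3 probe 7 this is no measured direction, since the MeDIP signal was above background on no inulin array.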
